A study of Mus musculus with 69 samples.

Results

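Bone marrow-derived macrophages (BMDMs) of the BALB/cJ strain (BALB) were compared after 24 h of interleukin-4 (IL-4) and in the basal state. The 6 RNA sequencing libraries were taken as all columns of a 5-strain table named for BALB, 3 per condition, out of 29 libraries in that table and 69 samples in the series. Marrow of female mice aged 8 to 12 weeks was differentiated for 7 days in medium with macrophage colony-stimulating factor from conditioned medium of L929 fibroblasts, and the treated cultures received 20 ng/ml IL-4 while the basal cultures received none. The other libraries in the table hold the same 2 conditions in BMDMs of 4 further strains, abbreviated SPRET (SPRET/EiJ), PWK (PWK/PhJ), C57 (C57BL/6J) and NOD (NOD/ShiLtJ). The labels name no engineered allele for these libraries. Replicates are described as biological, but no source used here says whether those of a strain came from separate mice. The p-values therefore measure the spread between libraries within groups, pooled over the 29 libraries of the 5 strains.

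IL-4 is a type 2 cytokine made by T helper cells and several innate cells. It binds a receptor built on the IL-4Rα chain, and Janus kinases at the receptor phosphorylate STAT6, which dimerises, enters the nucleus and binds DNA at palindromic sites. Macrophages that respond take up an "alternatively activated" state with high arginase, lectin receptors and eosinophil- and T cell-attracting chemokines, and with lower expression of many inflammatory genes. In this series the strains were used to ask how natural genetic variation alters that response.

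Levels are given in TPM, a transcript abundance scaled for gene length and library size, and changes are differences of log2(TPM + 1), IL-4 minus basal, from limma. Induced and repressed genes are those that changed over 2-fold at an adjusted p under 0.05. The BALB libraries held 13.8 to 21.3 M tags, and 11907 of 24537 listed genes passed the filter on low values. The table gives no counts per gene, so no counting interval is given. The macrophage label was set against the levels of marker genes. The 16 macrophage identity genes summed to between 32430 and 33350 TPM in basal and between 24430 and 25900 TPM in IL-4 libraries. The lysozyme gene Lyz2 led this sum, at up to 25930 TPM, so the sum says little about the other members. Basal means of Cd14 and Fcgr1 were 596 and 7.17 TPM, and both fell after IL-4. Fcgr1 stood at 70.2, 52.3, 29.3 and 1.42 TPM in basal C57, NOD, PWK and SPRET. Markers of 7 other cell types stayed low, each list summing to at most 7.87 TPM in any BALB library, and none of the 17 markers that could be tested was called. Those of neutrophils summed to at most 1.665 TPM over their 8 markers, of which 1 was at 0 in all basal and 2 in all IL-4 libraries.

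Some libraries stood apart in one respect. Genes whose transcripts exceed 60% G and C (496 genes) lay below the other genes in all basal BALB libraries, with a median gap of -0.37, -0.21 and -0.17 log2 units in replicates 1, 2 and 3 relative to the mean of the 29 libraries. The gap was -0.15, 0.13 and -0.02 in IL-4 replicates 1, 2 and 3, so IL-4 replicate 1 lay near the basal libraries on this measure. Counts are therefore also given without replicate 1 of both groups and after each library was centred in bins of GC content and length. The part of this pattern in the results was not tested beyond those values.

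In total, 151 genes were induced and 97 were repressed, 1.27% and 0.815% of all tested genes. The basal and IL-4 libraries did not overlap for 142 and 93 of them, but these libraries also gave the calls, so that is no separate support. A listed length under 300 bases, where TPM is less certain, applied to 5 and 9. Without replicate 1 of both groups the counts were 148 and 93, of which 143 and 82 were among the genes called with all libraries. After centring by GC content and length they were 161 and 78. The median change of all tested genes was -0.11, and scaling the libraries by the median ratio of their genes brought it to 0.00. Small shifts depended on that scaling. At an adjusted p under 0.05 regardless of size, 1125 genes were higher and 2951 lower (9.45% and 24.8%). After median-ratio scaling they were 2039 and 1492 (17.1% and 12.5%).

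**Figure D1:**
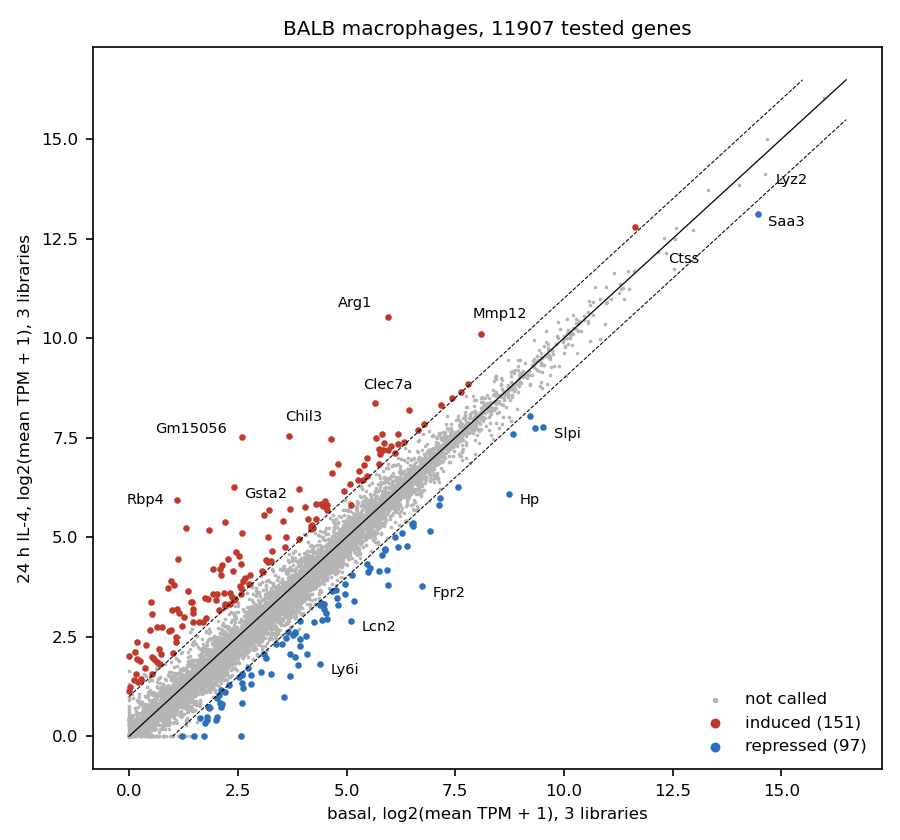
Mean level of each tested gene in the 3 basal (horizontal) and the 3 IL-4 libraries (vertical) of BALB macrophages, as log2(mean TPM + 1), with called genes in red and blue, the solid line at equal levels and dashed lines at a difference of 1 on this scale. Arg1 reached a mean of 1474 TPM, and Saa3 fell from 22500 to 8927 TPM.

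The 15 induced genes with the largest change were Gm15056, Rbp4, Arg1, Chil3, Gsta2, Scand1, Ccl22, Cish, Serpina3g, Mgl2, Ccl24, Pdlim1, Cldn11, Ccl7 and Clec7a. Arg1 encodes arginase 1, which turns arginine into ornithine and urea, and spans chr10:24915207-24927470 in mm10. Its level was 59.7, 60.6 and 63.1 TPM in the basal libraries and 1408, 1459 and 1556 TPM after IL-4. The groups were far apart, with a log2 change of 4.57 ± 0.16 (SE, adjusted p = 4.08e-17).

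Rbp4 encodes retinol-binding protein 4, the plasma carrier of vitamin A (chr19:38116620-38124811). It was near the detection filter in the basal state, at 1.47, 0.94 and 0.99 TPM. After IL-4 it stood at 64.2, 57.1 and 59.7 TPM, a log2 change of 4.85 ± 0.11 (SE, adjusted p = 2.02e-20). Gm15056, a predicted gene on chromosome 8 with a listed length of 310 bases, gave the largest change of all, 4.92 ± 0.19 (SE, adjusted p = 1.90e-16). It rose from 4.63, 6.46 and 4.13 TPM to 167, 193 and 183 TPM.

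Chil3 (Ym1), a secreted chitinase-like lectin, went from 11.8, 12.5 and 11.03 TPM to 199, 172 and 189 TPM. The glutathione transferase gene Gsta2 went from 3.57, 4.97 and 4.32 TPM to 71.2, 69.4 and 86.0 TPM. Both belong to families with near-identical copies, so the split of tags among copies is uncertain, as it also is for the serine protease inhibitor gene Serpina3g, which rose by 3.18 ± 0.11 (SE). Cish, a feedback inhibitor of cytokine receptor signalling, went from 1.25, 1.20 and 1.15 TPM to 20.6, 22.3 and 20.1 TPM. The tight-junction gene Cldn11 rose to between 170 and 177 TPM from between 22.6 and 26.2 TPM, and the cytoskeletal adaptor gene Pdlim1 from 0.84 to 12.2 TPM on average.

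Clec7a encodes dectin-1, the receptor for fungal β-glucan, and lies on chromosome 6. It rose from 50.8, 50.8 and 46.9 TPM to 333, 323 and 329 TPM, a log2 change of 2.71 ± 0.06 (SE, adjusted p = 2.02e-20). Replicates differed by far less than the groups. Scand1, which encodes a small SCAN-domain protein, was the exception among the 15. It was at 0.20, 1.41 and 2.78 TPM in the basal and at 5.08, 67.7 and 36.7 TPM in the IL-4 libraries, so that the treated replicates ranged more widely than any other gene of the group and IL-4 replicate 1 was the lowest. Its transcript is 68.4% G and C, and within each group its libraries stood in the order of the GC gap given above.

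**Figure D2:**
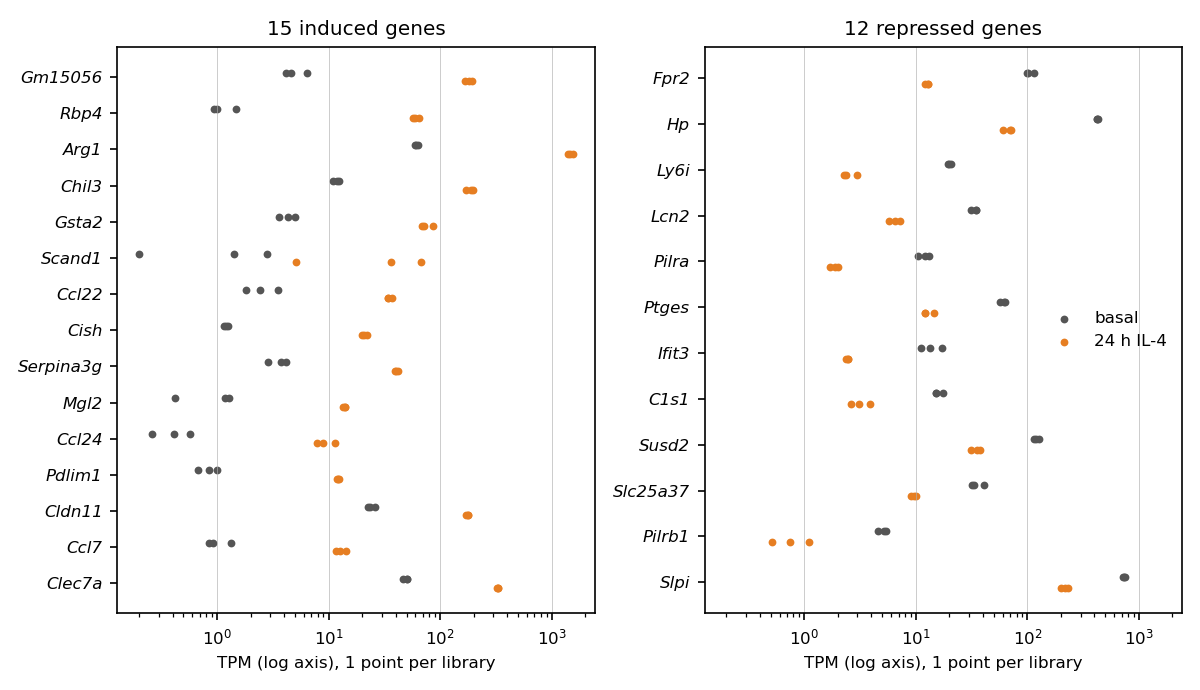
TPM of the 15 induced and 12 repressed genes with the largest change in each of the 6 BALB libraries, 1 point per library on a log axis, basal in grey and 24 h IL-4 in orange. The conditions do not overlap for any of them, which the choice of these genes required, and only Scand1 is spread widely in both groups.

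STAT6 prefers a palindrome of TTC and GAA parted by 4 bases (TTCNNNNGAA, the same on both strands). It was searched in the 250 bases before the start of genes in RefSeq (GRCm38.p6, the assembly of mm10). Of the 15 genes, 12 had such a window and 2 of these held the site, Gm15056 and Clec7a. Of the 12 most repressed genes, named further on, 8 had a window and 2 of these held it too, Lcn2 and Ptges. The windows of the 2 induced genes are shown to place the palindrome relative to their starts, with the site in capitals. The Clec7a window is chr6:129472780-129473029 on the minus strand, and the start is the one in the deposited table. The Gm15056 window is chr8:20902457-20902706 on the minus strand, before a RefSeq start 483 bases upstream of the deposited one.
Clec7a: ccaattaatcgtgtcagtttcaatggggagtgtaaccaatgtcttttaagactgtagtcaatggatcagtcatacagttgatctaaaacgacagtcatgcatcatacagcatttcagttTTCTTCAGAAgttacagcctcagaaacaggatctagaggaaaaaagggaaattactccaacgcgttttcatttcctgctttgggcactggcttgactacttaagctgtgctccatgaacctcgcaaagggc
Gm15056: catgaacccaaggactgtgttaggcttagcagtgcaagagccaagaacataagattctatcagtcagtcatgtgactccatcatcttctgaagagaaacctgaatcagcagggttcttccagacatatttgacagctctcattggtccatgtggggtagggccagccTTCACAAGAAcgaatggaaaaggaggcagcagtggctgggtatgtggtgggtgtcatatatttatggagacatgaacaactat

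The site begins 131 bases before the start in Clec7a and 83 bases before it in Gm15056. Among induced genes with a window, 12 of 111 (10.8%) held the site, against 5 of 66 repressed genes (7.58%), 416 of 9041 tested genes (4.6%) and 5.85% of all 32851 windows. The related site with 3 bases in the middle (TTCNNNGAA, GAS) was in 7.21% of induced and 12.1% of repressed windows, against 5.82% of tested genes. The PU.1 core GAGGAA was in 27.9% of induced and 42.4% of repressed windows, against 23.0%, and the EGR core GTGGGNG in 36.0% and 27.3%, against 34.2%. These are counts of letters in a window and not of bound sites.

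Counts past 2-fold in this and the later lists stand beside 1.27% induced and 0.815% repressed of all tested genes. Of 18 tested genes of the IL-4 receptor and JAK-STAT6 list, 2 were induced past 2-fold and none repressed. The list's median was -0.08 beside -0.11 for all genes. At an adjusted p under 0.05 regardless of size, 5 were higher and 6 lower, beside 9.45% and 24.8% of all genes. After median-ratio scaling 5 were higher and 5 lower, beside 17.1% and 12.5%. The receptor chain gene Il4ra stood at 18.65 ± 0.77 TPM basal and 18.1 ± 1.0 TPM after IL-4 (SD, n = 3), and Stat6 at 44.9 and 42.4 TPM. Neither passed the test. The 2 past 2-fold are negative regulators, Cish and Socs1, the latter from 1.93, 2.20 and 3.09 TPM to 4.71, 9.55 and 6.31 TPM (adjusted p = 6.06e-05). Socs1 was short of 2-fold without IL-4 replicate 2 (0.94). The other 3 that were higher are the feedback inhibitor genes Socs2 (0.77) and Socs3 (0.40) and the transcription factor gene Stat5a (0.59). Among those lower were the phosphatase gene Ptpn6, from 119.6 to 84.6 TPM, and Il2rg, the common γ chain of the receptor, from 239.3 to 193.9 TPM.

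Of 22 tested alternative activation markers, 16 were induced and none repressed, with a median of 1.35. The genes of this list were chosen as known IL-4 targets of mouse macrophages, so its direction is not independent evidence. Arg1, Chil3, Ccl22 and Mgl2 led, and Mrc1, the mannose receptor CD206, rose from 27.1, 22.9 and 23.4 TPM to 106, 85.5 and 101 TPM. Retnla, the gene of the secreted protein FIZZ1 and a standard marker of this state, was not among those that rose. It was at 1.73 TPM basal and 1.17 TPM after IL-4 (log2 change -0.33), and Cd163 and Alox15 did not reach the filter on low values.

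In arginine and polyamine metabolism, 2 of 14 genes were induced and none repressed, beside 1.27% and 0.815% of all tested genes. At an adjusted p under 0.05 regardless of size, 7 were higher and 1 lower, beside 9.45% and 24.8% of all genes. After median-ratio scaling 10 were higher and 0 lower, beside 17.1% and 12.5%. Beside Arg1, the other gene past 2-fold was Slc7a2, a carrier of cationic amino acids. It went from 81.6, 66.2 and 67.6 TPM to 165, 152 and 167 TPM (log2 change 1.16 ± 0.07, SE). Nos2, the inducible nitric oxide synthase that uses the same substrate, was at 61.9 TPM basal and 75.8 TPM after IL-4, short of 2-fold (log2 change 0.29, adjusted p = 0.00476).

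Of 27 transcription factors linked to the IL-4 response, 8 were induced and none repressed. Msx3, a homeobox gene, rose most, from 1.62, 1.58 and 1.44 TPM to 10.2, 11.2 and 13.1 TPM. Pparg, the lipid-sensing nuclear receptor, rose from 5.33 to 14.8 TPM, and Egr2, a zinc-finger factor, from 18.4, 16.8 and 17.4 TPM to 40.5, 35.5 and 39.0 TPM (log2 change 1.08 ± 0.09, SE, adjusted p = 6.44e-10). Klf2 and Batf3 rose by 1.42 and 1.16, and Irf4 and Klf4 were the others past 2-fold beside Cebpb. Cebpb was at 25.6, 44.5 and 60.5 TPM basal and at 57.9, 121 and 99.1 TPM after IL-4, so its groups overlapped. Its transcript is 67.2% G and C, and after centring by GC content and length its change was 0.92 and it was no longer past 2-fold, nor was Batf3 (0.97). Without basal replicate 1 or IL-4 replicate 2 the change of Cebpb was 0.76 or 0.87. When limma was fitted to only the 6 BALB libraries, Cebpb was not called (adjusted p = 0.0873).

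Of 19 chemokine genes, 9 were induced and 1 was repressed, beside 1.27% and 0.815% of all tested genes. The T cell attractant Ccl22 rose from 2.42, 3.55 and 1.82 TPM to 34.0, 37.1 and 34.3 TPM, and the eosinophil attractant Ccl24 from between 0.26 and 0.57 TPM to between 7.81 and 11.5 TPM. The monocyte attractants Ccl7 and Ccl12 rose by 2.77 and 2.54. The repressed member was Ccl3, which encodes the inflammatory chemokine MIP-1α and went from 89.7 to 39.3 TPM (log2 change -1.17).

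Among 22 C-type lectins and scavenger receptors the directions were mixed, with 5 induced and 3 repressed. Mgl2, Clec7a, Mrc1 and Clec10a rose, all of which bind sugars. Marco, a scavenger receptor for bacteria and particles, went from 83.3 to 26.5 TPM, and the lectin receptor genes Clec12a and Clec4n were the others repressed.

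Among matrix, protease and growth factor genes, 7 of 25 were induced and 3 repressed. Mmp12, the macrophage elastase, rose from 279, 265 and 275 TPM to 1121, 1049 and 1100 TPM. Fn1 (fibronectin) and Mmp13 rose from low levels, and Tgfbi, a secreted matrix protein, went from 200, 185 and 179 TPM to 78.2, 72.3 and 76.3 TPM. In the adhesion and fusion list, 4 of 22 were induced and 1 was repressed. E-cadherin (Cdh1) rose from at most 0.24 TPM to between 3.93 and 4.42 TPM, and the integrin Itgax (CD11c) from 29.2, 26.0 and 25.1 TPM to 121, 107 and 112 TPM. The integrin chain of LFA-1, Itgal, went from 19.5, 17.8 and 16.7 TPM to 6.79, 5.89 and 6.13 TPM.

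**Figure D3:**
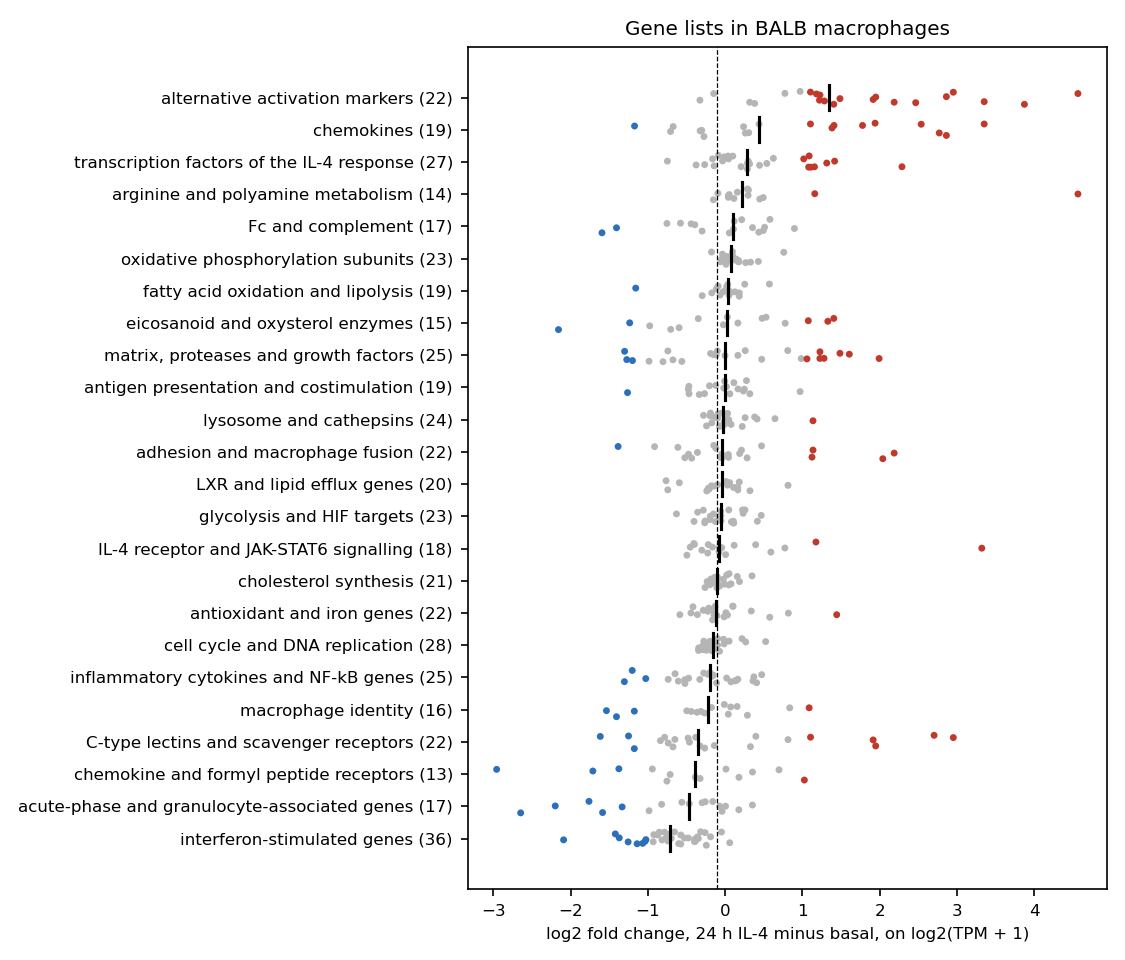
Log2 change of every tested member of the 24 pathway and identity lists, 1 point per gene, with red for induced, blue for repressed and grey for uncalled genes, the black bar at each list's median and the dashed line at the median of all tested genes. The number of tested members is in brackets, and points are spread vertically only for legibility. Alternative activation markers lie furthest to the right (median 1.35) and interferon-stimulated genes furthest to the left (median -0.72).

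The 12 repressed genes with the largest change were Fpr2, Hp, Ly6i, Lcn2, Pilra, Ptges, Ifit3, C1s1, Susd2, Slc25a37, Pilrb1 and Slpi. Fpr2, a formyl peptide receptor for bacterial and damage signals (chr17:17887824-17893952), led. It went from 116, 98.7 and 102 TPM to 12.9, 12.1 and 12.9 TPM (log2 change -2.96 ± 0.09, SE, adjusted p = 2.61e-18). Its neighbour Fpr1 went from 8.63 to 1.93 TPM on average, and the fractalkine receptor gene Cx3cr1 from 2.44 to 0.32 TPM. These are the 3 repressed members among 13 tested chemokine and formyl peptide receptors.

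Acute-phase and granulocyte-associated genes followed. Of 17 tested, 5 were repressed and none was induced. Hp (haptoglobin, which binds free haemoglobin) went from 425, 419 and 427 TPM to 70.9, 60.4 and 69.4 TPM. Lcn2, which sequesters bacterial iron carriers, went from 31.1, 34.3 and 34.4 TPM to 7.16, 6.46 and 5.80 TPM. The protease inhibitor gene Slpi fell from 721, 729 and 753 TPM to 220, 199 and 230 TPM, and Saa3 (serum amyloid A3) from 22500 to 8927 TPM on average. S100a8, also repressed, went from 48.8, 56.7 and 53.2 TPM to 17.0, 16.0 and 17.7 TPM. The neutrophil markers stood near 0, with Camp the highest at 1.01 TPM. Which cells the transcripts of this list came from was not tested.

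Prostaglandin genes split. Ptges, the terminal synthase of prostaglandin E2, went from 63.6, 56.6 and 61.6 TPM to 14.4, 12.05 and 12.01 TPM, while Ptgs1 (cyclooxygenase-1) rose from 15.8, 16.1 and 17.1 TPM to 46.9, 39.0 and 42.0 TPM. Ptgs2 (cyclooxygenase-2) was at 27.3 and 30.8 TPM and did not pass the test. In the whole list of eicosanoid and oxysterol enzymes, 3 of 15 were induced and 2 repressed. Ch25h, which makes 25-hydroxycholesterol, was induced from at most 0.168 TPM to between 1.751 and 2.171 TPM, and Pla2g7, a phospholipase that degrades platelet-activating factor, fell by 1.24.

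Among 25 inflammatory cytokine and NF-κB genes, 3 were repressed and none was induced, beside 0.815% and 1.27% of all tested genes. The repressed ones were Tlr2, the receptor of bacterial lipoproteins (log2 change -1.30), Tnf (-1.20) and Nlrp3, the inflammasome sensor (-1.03). Tnf went from 14.9, 13.3 and 11.03 TPM to 5.86, 5.00 and 4.47 TPM. Nlrp3 was short of 2-fold without basal replicate 1 (-0.91), without IL-4 replicate 3 (-0.98) and after median-ratio scaling (-0.90). Il6, Ptgs2 and Nfkb1 did not pass the test. Of 17 Fc receptor and complement genes, 2 were repressed, Cfb (complement factor B) from 707, 613 and 610 TPM to 219, 204 and 212 TPM and the IgG receptor gene Fcgr1 from 7.17 to 2.08 TPM. In antigen presentation 1 of 19 was repressed, beside 0.815% of all tested genes. This was the costimulatory ligand gene Icosl, and the class II chain H2-Aa was at 535 and 579 TPM without passing the test.

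Interferon-stimulated genes moved together and by moderate amounts. Of 36 tested, 8 were repressed past 2-fold and none was induced. At an adjusted p under 0.05 regardless of size, 32 were lower and none higher, beside 24.8% and 9.45% of all genes, and the list's median was -0.72. After median-ratio scaling 28 were lower, beside 12.5% of all genes, and the median was -0.58. Without replicate 1 of both groups 30 were lower, beside 16.6% of all genes. The 8 past 2-fold became 5 after median-ratio scaling, 4 after centring by GC content and length and 6 without replicate 1. Ifit3, an RNA-binding antiviral protein, went from 17.1, 13.3 and 11.1 TPM to 2.45, 2.49 and 2.37 TPM (log2 change -2.09 ± 0.14, SE, adjusted p = 1.57e-11). Ifit2, Ifi44 and Oasl2 fell by 1.42, 1.37 and 1.26. The basal libraries were ordered alike for these 4 genes, with replicate 1 highest and replicate 3 lowest, and all 3 lay above the treated ones. Irf7, the factor that amplifies the interferon response, was lower at 241 TPM than in the basal state at 436 TPM, short of 2-fold.

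Metabolic and housekeeping lists showed few calls past 2-fold. Among all tested genes 1.27% were induced and 0.815% repressed, shares at which lists of this size hold few or none. None of 21 tested cholesterol synthesis genes, 20 LXR and lipid efflux genes, 23 glycolysis and HIF genes, 23 oxidative phosphorylation subunits or 28 cell cycle genes was called by limma in either direction. At an adjusted p under 0.05 regardless of size, beside 9.45% higher and 24.8% lower of all genes, the numbers depended on scaling. After median-ratio scaling 17.1% of all genes were higher and 12.5% lower. In cholesterol synthesis 1 was higher and 1 lower, against 5 and 0 after median-ratio scaling. The LXR list held 3 and 8, against 5 and 3, and the glycolysis list 5 and 7, against 8 and 2. Oxidative phosphorylation held 6 and 0, against 15 and 0, and the cell cycle list 3 and 7, against 3 and 1. Aldoa was at 5170 TPM basal and 4508 TPM after IL-4, and the proliferation gene Mki67 at 6.95 and 5.35 TPM. In fatty acid oxidation 1 of 19 was called, the acyl-CoA synthetase gene Acsl1, which went from 156, 128 and 136 TPM to 65.1, 59.6 and 61.4 TPM and was short of 2-fold after centring by GC content and length (-0.95). Of 24 lysosomal genes Atp6v0d2, a proton pump subunit, was induced (143 to 316 TPM), and of 22 antioxidant and iron genes the transferrin receptor gene Tfrc was (53.0 to 147 TPM). Among macrophage identity genes Aif1, Fcgr1 and Cd14 fell past 2-fold, Cebpb rose, and Itgam and Cd68 did not pass the test.

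The response in BALB was set against that of the other strains. Of the 151 induced genes, 106 were also induced in C57, which is 70.2% of the BALB list and 39.1% of the 271 genes of C57. NOD shared 57 (37.7% of the BALB list, 65.5% of its own 87), PWK 79 (52.3% of the BALB list, 43.2% of its own 183) and SPRET 76 (50.3% of the BALB list, 27.5% of its own 276). All 4 other strains induced 30 of the genes, and 31 were induced in none of them. Of the 97 repressed genes, 53 were repressed in C57 (54.6% of the BALB list, 29.1% of the 182 of C57), 6 in all 4 and 28 in none.

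A test of the difference itself, the BALB response minus the mean response of the other 4 strains in 1 limma model, called 48 genes larger and 42 smaller in BALB past 2-fold (0.403% and 0.353% of tested genes). "Larger" means the more positive change. After median-ratio scaling the split was 81 and 26, so that the share of larger responses among the calls went from 53.3% to 75.7%, and without replicate 1 of both BALB groups it was 55 and 41. Without IL-4 replicate 1 alone, 74 were larger. The 48 had a median GC content of 58.8%, beside 49.8% for all genes, and 22 of them lay above 60%, as did 4.27% of all genes. After centring by GC content and length, 40 of the 48 and 26 of the 42 were still called.

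**Figure D4:**
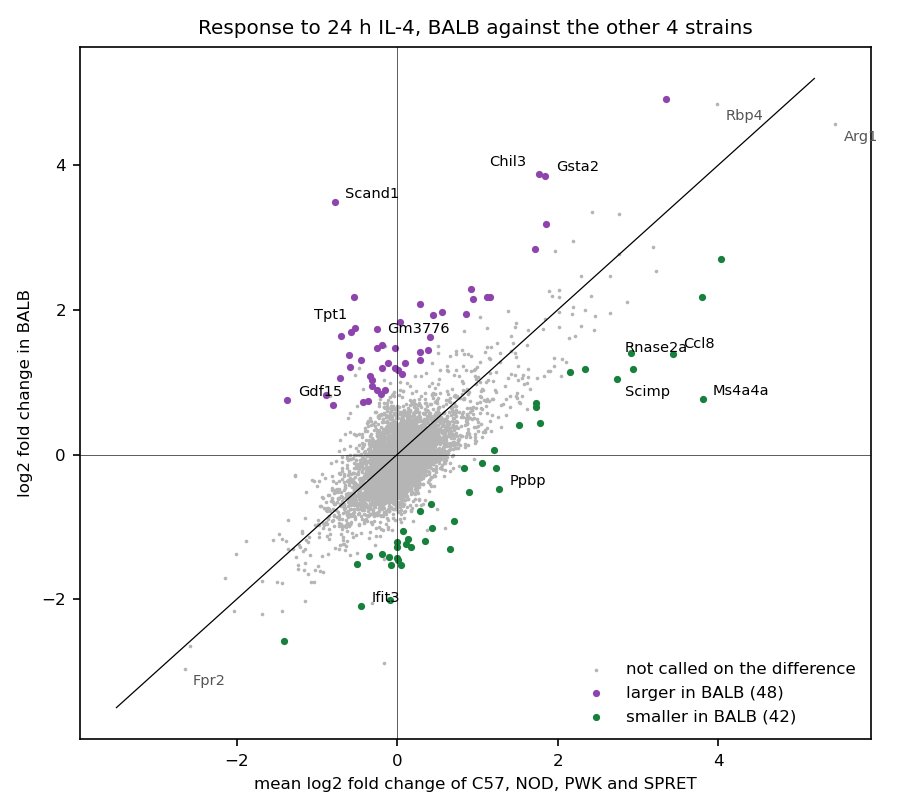
Log2 change to 24 h IL-4 in BALB (vertical) against the mean of the 4 other strains (horizontal), 1 point per tested gene, with genes called on the difference in purple (larger in BALB) and green (smaller in BALB) and the diagonal at equal changes. Arg1 and Rbp4 lie high on both axes, Ms4a4a and Ccl8 rose more elsewhere, and Scand1 stands apart at 3.50 in BALB against -0.78 in the other strains.

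The largest shortfall was at Ms4a4a, a membrane protein of the CD20 family. It was at 8.26, 6.15 and 8.99 TPM basal and at 13.6, 11.9 and 16.3 TPM after IL-4 in BALB, a log2 change of 0.77, against 6.95 in SPRET, 4.55 in PWK, 2.56 in C57 and 1.16 in NOD. The difference from their mean was -3.04 ± 0.18 (SE, adjusted p = 1.85e-11). Ccl8, a chemokine for monocytes and T cells, rose by 1.38 in BALB, from 39.8, 37.2 and 37.0 TPM to 102, 95.4 and 105 TPM. It rose by 5.13 in PWK, 4.23 in C57, 2.58 in NOD and 1.78 in SPRET, and the difference was -2.05 ± 0.14 (SE). Basal Ccl8 in BALB lay above that of NOD, PWK and SPRET, whose basal libraries reached at most 19.4 TPM, and below the 56.7 to 62.2 TPM of C57.

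Rnase2a, an eosinophil-associated ribonuclease with close copies, rose by 1.18 in BALB, 2.40 in C57, 2.49 in PWK and 7.18 in SPRET (difference from the mean of the 4 -1.75 ± 0.20, SE). It changed by -0.34 in NOD and did not pass the test there. Scimp, an adaptor of pattern recognition receptors, rose by 1.04 in BALB and by 1.14 in NOD, against 3.64 in PWK, 3.15 in C57 and 3.02 in SPRET (difference -1.69 ± 0.17, SE). Its own change was short of 2-fold without basal replicate 3 (0.96) or IL-4 replicate 3 (0.93). Ppbp, the platelet chemokine, did not pass the test in BALB (log2 change -0.48), C57 (0.31) or NOD (-0.05) and rose by 1.89 in PWK and 2.91 in SPRET. Its difference was -1.74 ± 0.23 (SE) from the mean of the 4, and -0.79 from C57 alone (adjusted p = 0.0721). Ifit3 fell by 2.09 in BALB and by 1.61 in C57, and its changes in NOD, PWK and SPRET were -0.12, 0.12 and -0.18. The difference was -1.64 ± 0.16 (SE, adjusted p = 7.66e-08) against the mean of the 4, but -0.48 against C57 alone (adjusted p = 0.114).

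Ifit3 belongs to a list whose level also differed among strains. The summed level of the 36 interferon-stimulated genes was 2668 to 2734 TPM in basal BALB and 1852 to 1896 TPM after IL-4. It was 3386 to 3505 TPM and then 2891 to 3050 TPM in C57. NOD libraries were higher, at 6371 to 6680 TPM and then 5942 to 6432 TPM. PWK libraries stood at 3472 to 3689 TPM and then 3161 to 3395 TPM, and SPRET libraries were lower, at 1469 to 1495 TPM and then 1585 to 1606 TPM. The list's median difference in response was -0.61, beside -0.19 for all genes.

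Among larger responses, Chil3 differed from the mean of the others by 2.11 ± 0.25 (SE, adjusted p = 1.43e-06). That mean hides C57, where it changed by 4.72 and reached 1667 to 1856 TPM. Against C57 alone the BALB response was smaller by a log2 value of -0.85 and did not pass the test (adjusted p = 0.0675). No library of the other 3 strains exceeded 7.91 TPM. Gsta2 changed by 3.86 in BALB, 3.61 in C57, 2.43 in NOD, 1.42 in PWK and -0.07 in SPRET. Its difference was 2.01 from the mean of the 4, but 0.25 from C57 alone (adjusted p = 0.535). Its near copy Gm3776 rose in BALB from 0.87, 1.16 and 0.63 TPM to 4.89, 5.6 and 5.26 TPM, changed by 0.02 in C57 and -1.02 in NOD, and was listed at 0 in every PWK and SPRET library.

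Gdf15, a stress-induced cytokine of the TGF-β family, changed in opposite directions. In BALB it was at 3.51, 6.06 and 8.91 TPM basal and at 6.81, 12.9 and 12.9 TPM after IL-4, with overlapping groups and a log2 change of 0.75 ± 0.24 (SE), which was past 2-fold without IL-4 replicate 1 (1.03) or basal replicate 3 (1.02). In C57, NOD, PWK and SPRET it changed by -1.55, -0.82, -1.82 and -1.28, and the difference was 2.12 ± 0.27 (SE, adjusted p = 5.18e-06). The transcript of Gdf15 is 61.3% G and C, and replicate 1 was its lowest BALB library in both groups. After centring by GC content and length its change in BALB was 0.58 (limma adjusted p = 0.045) and its difference 1.94. The part of the GC pattern in these values was not tested. Its levels in BALB were far below those of NOD, where the libraries ranged from 438 to 1255 TPM.

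Scand1 and Tpt1, the gene of a growth-related translationally controlled protein with many processed pseudogenes, gave the widest errors among the 12 genes. Their differences were 4.27 ± 0.83 and 2.28 ± 0.55 (SE). Tpt1 was at 8.52, 12.5 and 14.97 TPM basal and at 14.985, 79.9 and 60.03 TPM after IL-4 in BALB, so that IL-4 replicate 1 was level with the highest basal library. Replicates of one group were far apart for Scand1 elsewhere too, from 7.48 to 68.7 TPM after IL-4 in NOD and from 21.9 to 67.95 TPM in basal C57. The Scand1 transcript is 68.4% G and C. After centring by GC content and length its BALB change was 3.31 and its difference 4.05. The part of the GC pattern in these values was not tested. In BALB the change of Tpt1 was not called when only the 6 BALB libraries were fitted (adjusted p = 0.0852) or without IL-4 replicate 2 (1.30, adjusted p = 0.0743).

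**Figure D5:**
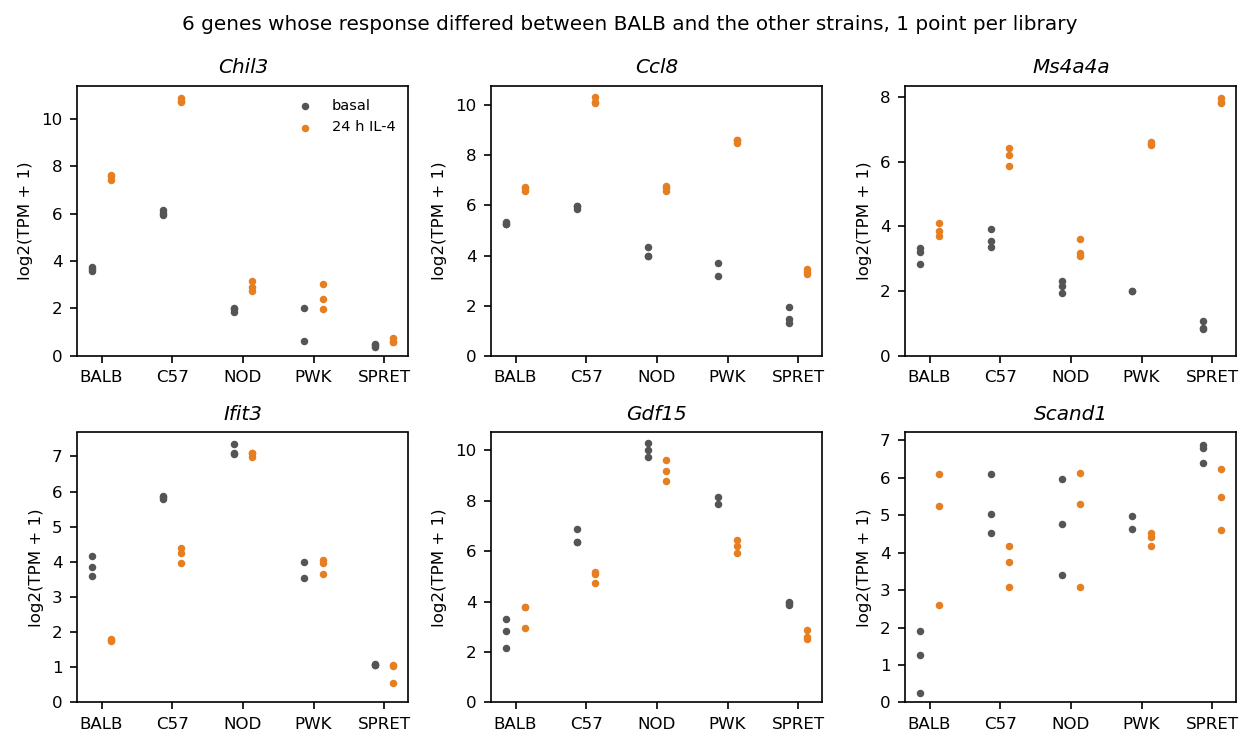
Level of 6 genes, as log2(TPM + 1), in each of the 29 libraries by strain, 1 point per library, basal in grey and 24 h IL-4 in orange. Ccl8 and Ms4a4a rose by less in BALB than in C57 or PWK, Ifit3 fell in BALB and C57, Gdf15 was lower after IL-4 in all strains but BALB, and Scand1 was widely spread within groups.

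Genes that the study followed by name showed a range. Arg1 changed by 4.75 in C57, 3.59 in NOD, 6.68 in PWK and 6.83 in SPRET, against 4.57 in BALB, where its basal mean of 61.1 TPM lay below that of C57 (117 to 137 TPM) and above those of the other 3. The difference from the mean was -0.89 ± 0.18 (SE, adjusted p = 7.53e-04), short of 2-fold. Slc7a2 differed by -0.72 ± 0.08 and Egr2 by -0.96 ± 0.10 (SE). Msx3 differed from the mean by 1.37 ± 0.13 (SE, adjusted p = 6.61e-08) but from C57 alone by -0.99 ± 0.17 (SE, adjusted p = 1.45e-04). It rose by 2.29 in BALB and by 3.28 in C57, and did not exceed 0.57 TPM in any NOD, PWK or SPRET library.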

How the data were processed

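Poly(A) RNA of the macrophage cultures was sequenced, and the authors deposited 1 table of TPM values per gene, strain and replicate, counted over exons with transcripts condensed to genes and scaled by the authors for gene length and library size. The submitters' processing notes name STAR 2.5.3, MMARGE 1.0 and HOMER 4.11.1, and the table's coordinates are those of mm10. Whether strand was used in counting is not given in the sources used here, so reads of overlapping and antisense genes cannot be told apart. The listed genes summed to between 629935 and 690215 TPM per library, so part of each library lies outside the rows used here. The table also holds the authors' own fold changes and p-values, which were not used, and 0 TPM columns were left without a sample.

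The table gives library totals of 7.02 to 22.5 M tags over the 29 libraries but no counts per gene, so a count model could not be applied. Values were analysed as log2(TPM + 1), which understates changes of low genes, with limma 3.58.1 in R 4.3.3 (1 mean for each of 10 groups, empirical Bayes with trend). Genes at 1 TPM or more in at least 2 libraries were tested, with Benjamini-Hochberg adjustment over all 11907. Calls needed a fold change over 2 and an adjusted p under 0.05. The BALB response minus the mean of those of the other 4 strains was tested as a contrast in the same model. The procedure was tested on simulated data. Summaries and plots used Python 3.11.15 and matplotlib 3.10.9. GC content came from GENCODE transcripts (matched for 97.6% of tested genes, 20 bins), promoter windows from RefSeq.

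Genes named are the 15 induced and 12 repressed ones with the largest change. These needed 5 TPM or more in the higher group, a listed length of at least 300 bases and no overlap between libraries. Also named are the 6 in each direction with the largest difference from the other strains, among those called on that difference. Up to 4 called members of each of 24 pathway lists and 7 marker lists were added. So were 4 genes the study followed (Arg1, Slc7a2, Msx3 and Egr2). A few further list members are named with their values beside a count. Members and lists were chosen with earlier results of these data known. The alternatives were other pseudocounts, filters, scalings, priors and sample sets, each BALB library left out in turn, and the replicate number as a block. One item is not reported here.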

Additional observations from a re-analysis of the deposited data

Results flagged for a closer look

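The response to IL-4 differed between BALB and the mean of the other 4 strains for the 12 genes named in that comparison. They were picked among the genes called on this difference by limma, so their passing that test was fixed by the choice. The change in BALB was the more positive one for Scand1 (difference 4.27 on the log2 scale), Tpt1 (2.28), Gdf15 (2.12), Chil3 (2.11), Gsta2 (2.01) and Gm3776 (1.98). It was the less positive or more negative one for Ms4a4a (-3.04), Ccl8 (-2.05), Rnase2a (-1.75), Ppbp (-1.74), Scimp (-1.69) and Ifit3 (-1.64). Against C57 alone, the differences of Gsta2 (0.25), Ppbp (-0.79), Ifit3 (-0.48) and Chil3 (-0.85) did not pass the test. That of Chil3 had the opposite sign to its difference from the mean. Replicates of Scand1 and Tpt1 lay far apart within groups. Groups held at most 3 libraries, too few for a test of single outlying samples.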

How the results depend on the processing

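A smaller pseudocount, 0.1 TPM, raised the calls to 227 induced, 208 repressed, 75 larger and 143 smaller in BALB than in the other strains, and 5 TPM lowered them to 80, 46, 21 and 14, since the pseudocount sets how far low genes can move. Median-ratio scaling gave 81 larger and 26 smaller, and centring by GC content and length gave 26 smaller. Against C57 alone, 75 were larger and 102 smaller, and the difference of Chil3 reversed to -0.847 (adjusted p = 0.0675). Leaving out each BALB library in turn gave 138 to 172 induced, 87 to 121 repressed, 36 to 74 larger (36 without IL-4 replicate 2, 74 without IL-4 replicate 1) and 35 to 48 smaller. The filters, quantile normalization, priors and the 6 BALB libraries alone kept the induced and repressed counts within 1.5 times. The contrast with other strains has no value in the 6 BALB libraries alone. With the replicate number as a replicate block, 154 were induced, 97 repressed, 50 larger and 44 smaller, and 150 and 95 in the 6 BALB libraries. Deviations of same-numbered basal and IL-4 libraries correlated at 0.333, 0.153 and 0.0887, and those of differently numbered ones at -0.304 to 0.207. Basal replicate 3 correlated best with IL-4 replicate 2 (0.207). Whether same-numbered libraries share more than a number was not tested. Of 1889 recomputed changes of named genes, 1850 kept their side of the threshold, 37 lost the call (19 of them with 5 TPM) and 2 gained it. The cause of these shifts was not tested. The GC and length centring and the setting without replicate 1 were chosen after seeing the data. Without counts per gene, the error of low values cannot be separated into sampling and other parts.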

Other observations

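The genes below lie outside the lists and were chosen after their values were seen. Lgals3, the gene of galectin-3, a secreted lectin that macrophages hold in quantity, was at 2853, 3336 and 3402 TPM basal and at 6743, 7718 and 6902 TPM after IL-4 (log2 change 1.16 ± 0.05, SE). Every treated library stood above every basal one. The carbonyl reductase gene Cbr2 rose from between 10.22 and 11.02 TPM to between 39.5 and 42.8 TPM, and the ubiquitin ligase gene Rnf19b from a mean of 85.8 TPM to 292.7 TPM. Cst7, which encodes an inhibitor of lysosomal cathepsins, rose from 56.3 to 145.2 TPM, the surface protease gene Adam8 from 53.8 to 135.5 TPM, and the bZIP factor gene Nfil3 from 22.3 to 55.4 TPM. The responses of Cbr2, Cst7, Adam8 and Nfil3 were not called different from the mean of the other strains (differences 0.04, -0.13, 0.16 and -0.01). Among repressed genes, Pid1, a gene linked to insulin signalling, went from 59.9 to 17.1 TPM, and Irak3, an inhibitor of Toll-like receptor signalling, from 30.1 to 13.1 TPM. Dut, the dUTPase that keeps uracil out of DNA, was induced from 4.51 to 23.8 TPM, and its response was smaller than elsewhere (difference -1.62 ± 0.09, SE, limma adjusted p = 1.74e-11).

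The AP-1 genes Jun, Junb and Jund were all induced in BALB. Junb was at 28.2, 48.6 and 73.1 TPM basal and at 95.1, 239.7 and 206.5 TPM after IL-4, and Jund at 25.6, 32.6 and 40.6 TPM and then 46.8, 105.1 and 85.9 TPM. Replicate 1 was the lowest library of both groups for both genes, whose transcripts are 62.6% and 67.2% G and C. Their responses were larger than the mean of the other strains by 1.80 ± 0.31 and 1.22 ± 0.28 (SE), and the part of the GC pattern in them was not tested. Gapdh, often used as a reference gene, was at 1.90 to 2.15 TPM basal and 1.24 to 1.87 TPM after IL-4 in this table. The glycolysis genes Aldoa and Pkm had basal BALB means of 5170 and 2046 TPM. The Gapdh value was therefore not read as the level of its transcripts. Whether rows or tags of genes with many copies were left out of these values was not tested.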
